A study of Mus musculus with 24 samples.

Results

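The comparison described here sets tumours from the arm labelled Mock, in which irradiated mice received pmel-1 CD8+ T cells that had not been transduced, against tumours of mice left without treatment, with both harvest days pooled. Its members were chosen by sample title and comprise 8 Mock and 8 untreated arrays, 16 of the 24 arrays of the series. All mice were 6 to 12 weeks old and carried tumours grown under the skin from 500000 B16 melanoma cells. In the Mock arm the whole body was irradiated with 5 Gy, and 100000 of the T cells were given, 10 to 14 days after the tumour cells. The tumours were excised at day 3 or day 7, made into single-cell suspensions, and their total RNA was hybridised to Affymetrix whole-transcript arrays, with 4 replicates per arm and day. The remaining 8 arrays (IL12TD) come from mice treated like the Mock arm but with T cells transduced with IL-12. The labels mention no irradiation and no T cells for the untreated mice, and the age of their tumours at harvest is not given. The effect of irradiation and the effect of the transferred cells therefore cannot be told apart. For the Mock day 7 samples the treatment protocol gives a time of 3 days, but titles, source names and characteristics all give 7 days, which was used.

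B16 is a pigmented mouse melanoma line, and pmel-1 T cells carry a transgenic receptor for a peptide of the melanocyte protein encoded by Pmel. Irradiation before transfer removes host lymphocytes, which otherwise compete with transferred cells for growth cytokines. T cells and NK cells that meet their target release interferon gamma. Interferon gamma induces a set of genes in tumour and host cells alike, among them guanylate-binding proteins and immunity-related GTPases, immunoproteasome subunits, peptide transporters, the chemokine gene Cxcl9 and, through the transactivator encoded by Ciita, MHC class II. Mock against untreated addresses irradiation and transfer together, with cells that make no added IL-12. In whole-tumour RNA, a difference in the number of cells of a type and a difference in RNA per cell cannot be told apart.

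No gene passed the test of Mock against untreated with the days pooled. Of 19938 genes, 0 had a Benjamini-Hochberg adjusted p under 0.05 (0% of those tested; limma with day as a term, 8 against 8 arrays), and the smallest adjusted p was 0.893. The fit placed 1069 genes (5.36%) at an unadjusted p under 0.05, where 5% is the share that a comparison with no difference gives. Of these, 802 were higher in Mock (4.02% of all genes) and 267 were lower (1.34%). The other fits that kept all 16 arrays also called 0 genes, and the omission of single arrays is described below. The differences named below are therefore values with their intervals and not calls, and their 95% intervals are not adjusted for the number of genes.

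The pooled comparison bounded the average over both days closely for most genes. The 95% interval of the difference lay within 2-fold in either direction for 19852 genes (99.6%) and within 1.5-fold for 19434 genes (97.5%), and it reached 2-fold for 86 genes. The median standard error was 0.10 log2 units. These intervals do not bound the effect at either day, where the median standard error was 0.145. Point estimates of at least 2-fold were reached by 8 genes higher and 2 lower at day 3. At day 7 they were reached by 38 higher and 1 lower. As pooled point estimates, 10 genes were at least 2-fold higher in Mock and 0 were at least 2-fold lower. These 10 were Gbp4, Iigp1, Cxcl9, Gzmb, Cd74, H2-Aa, H2-Ab1, Gm12250, Ifi205 and AW112010. They were singled out after their values were seen, as were Irf1, Irf8, H2-Aa and the further genes whose selection by value is stated where they appear. Of the 10, 7 belong to the interferon gamma, MHC class II, chemokine or cytotoxic lists used here. Measured by the same form of fit, IL12TD against Mock gave 3690 called genes (18.5%), 1438 higher and 2252 lower. Day 7 against day 3 within the Mock and untreated arrays gave 11603 (58.2%). IL12TD against Mock shares the 8 Mock arrays with the present comparison.

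**Figure D1:**
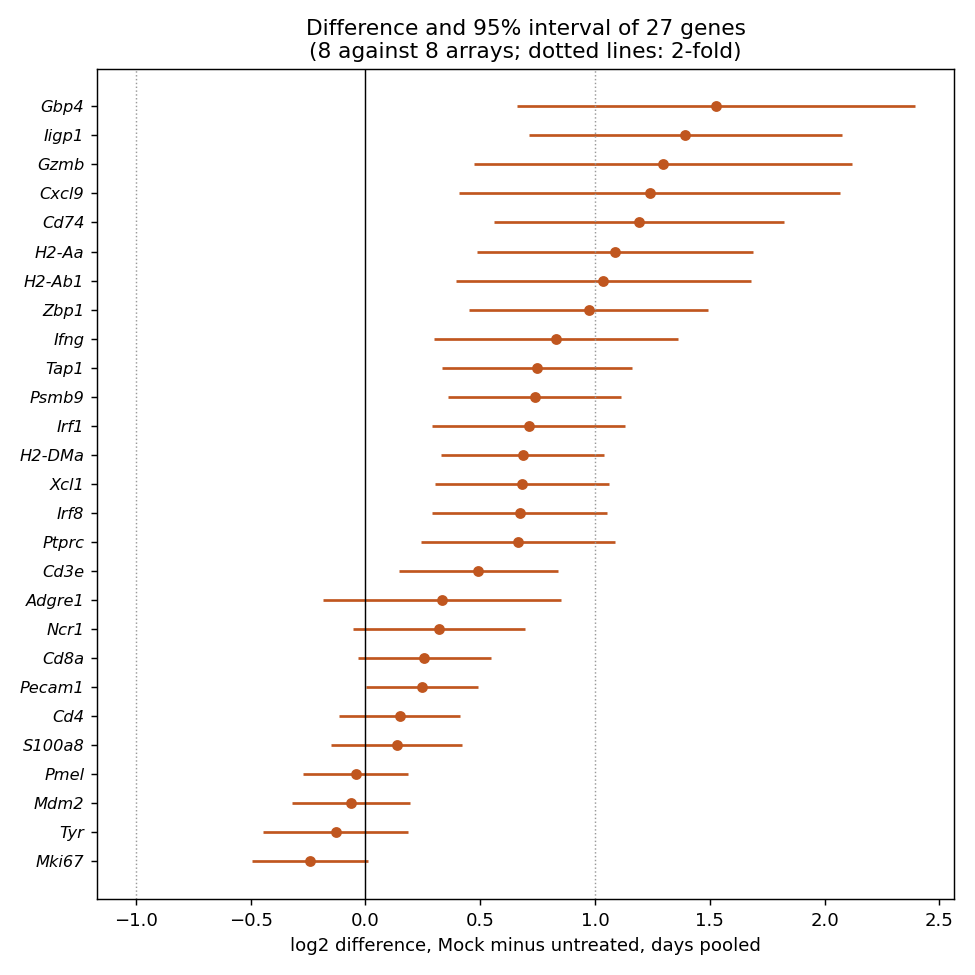
Pooled log2 difference, Mock minus untreated, on the horizontal axis for 27 genes, with the point estimate as a dot and the unadjusted 95% interval as a line (8 against 8 arrays, day as a term). Iigp1 and Gbp4 lie farthest to the right at 1.39 and 1.53, while Pmel and Mdm2 lie at -0.04 and -0.06 with intervals that cross 0.

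The arrays separated by day before anything else. The first principal component of the 16 arrays carried 59.6% of the variance and split day 3 from day 7 without overlap. Correlations between arrays of the same arm and day ran from 0.982 to 0.992 at day 3 and from 0.962 to 0.987 at day 7. Correlations across the arms at the same day ran from 0.982 to 0.993 and from 0.961 to 0.985. The ranges within and across the arms thus overlapped almost fully. The melanoma label was borne out by the melanocyte genes: Pmel was measured between 11.1 and 12.07 on all 16 arrays, against an array median over genes of 5.38 to 5.54. Cd8a, which encodes a chain of the CD8 co-receptor of the transferred cells, was measured between 4.61 and 5.97, on both sides of that median.

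Interferon gamma is known to act on promoters through a gamma-activated site, and MHC class II promoters carry a Y box. The 300-base windows of Irf8, Irf1 and H2-Eb1 are shown. Windows on 1 chromosome were left out of the choice. Irf8 and Irf1 had the smallest unadjusted p in the interferon gamma list among the remaining members whose window holds a match. H2-Eb1 had it in the MHC class II list. Iigp1, Psmb9 and Gbp4 in the interferon gamma list had smaller unadjusted p and are not shown. The same holds for Cd74 and H2-DMa in the MHC class II list. Sequences are from RefSeq on build GRCm38.p6, 250 bases before to 50 after the gene start, all on the + strand: Irf8 at chr8:120736108-120736407, Irf1 at chr11:53769764-53770063 and H2-Eb1 at chr17:34305617-34305916. Capitals mark matches to TTCNNNGAA (gamma-activated site core, 2 in Irf8 and 1 in Irf1) and to CTGATTGG (Y box core, 1 in Irf8 and 1 in H2-Eb1).
Irf8: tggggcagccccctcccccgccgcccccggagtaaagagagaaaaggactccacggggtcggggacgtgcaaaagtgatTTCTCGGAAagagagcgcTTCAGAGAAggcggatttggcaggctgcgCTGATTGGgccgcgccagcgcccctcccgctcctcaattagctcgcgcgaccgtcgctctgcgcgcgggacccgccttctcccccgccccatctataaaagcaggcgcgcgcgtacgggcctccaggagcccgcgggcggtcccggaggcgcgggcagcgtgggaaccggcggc
Irf1: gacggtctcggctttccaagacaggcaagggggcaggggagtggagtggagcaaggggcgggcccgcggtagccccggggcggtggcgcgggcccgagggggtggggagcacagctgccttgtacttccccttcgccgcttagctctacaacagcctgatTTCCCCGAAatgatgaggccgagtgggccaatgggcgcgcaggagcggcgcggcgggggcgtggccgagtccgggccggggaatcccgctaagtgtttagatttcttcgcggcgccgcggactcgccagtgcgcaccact
H2-Eb1: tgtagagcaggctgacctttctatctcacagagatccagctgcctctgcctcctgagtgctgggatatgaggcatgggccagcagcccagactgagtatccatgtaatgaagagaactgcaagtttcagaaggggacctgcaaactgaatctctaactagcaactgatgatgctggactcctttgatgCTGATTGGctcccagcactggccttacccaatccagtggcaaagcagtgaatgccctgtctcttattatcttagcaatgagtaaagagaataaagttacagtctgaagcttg
The motif search covered both strands and also used GAAANNGAAA, a core of the interferon-stimulated response element. Of the 15614 tested genes with a window, 8.99% held TTCNNNGAA, 3.89% held GAAANNGAAA and 5.44% held CTGATTGG. Of the 19 measured interferon gamma genes, 12 had a window, and 5 of these held TTCNNNGAA (41.7%) and 6 held GAAANNGAAA (50%). A further match, CTGATTGG, was held by 4 of the 12 (33.3%). Of the 23 measured type I interferon genes, 16 had a window. Among these 16, 5 held TTCNNNGAA (31.2%), 8 held GAAANNGAAA (50%) and 0 held CTGATTGG. Each motif was held by 2 of the 11 MHC class I genes with a window (18.2%). Of the 9 measured MHC class II genes, 6 had a window, and 4 of these held CTGATTGG (66.7%), while 0 held either of the others. These are matches of letters in a window and were not tested against the expression values.

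Of the 43 lists, the interferon gamma response genes had the largest share of members higher in Mock at an unadjusted p under 0.05. The list held 24 genes, of which 19 were measured here by a probeset of a single gene. Of the 19, 0 passed the test, 16 were higher at an unadjusted p under 0.05 (all genes: 4.02%) and 0 were lower. The median difference of the list was 0.62 log2 units with the days pooled, 0.51 at day 3 and 0.60 at day 7, beside medians over all genes of 0.006, -0.005 and 0.03. List members are measured on the same 16 arrays and vary together, so their number is not a number of independent observations.

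Iigp1 encodes an immunity-related GTPase that attacks the vacuoles of intracellular parasites. It had the second smallest unadjusted p among genes whose symbol is more than a model, clone or accession identifier. At day 3 it was measured at 3.43, 3.82, 3.58 and 4.7 (log2 intensity) in the untreated tumours and at 6.4, 4.16, 7.11 and 5.42 in the Mock tumours. At day 7 the untreated values were 3.52, 4.25, 4.45 and 3.78 and the Mock values 5.87, 4.21, 4.9 and 4.6. Mock replicate 2 was the lowest Mock array at each day and fell within the untreated range both times, so the groups overlapped. The pooled difference was 1.39 ± 0.33 (SE), or 2.63-fold with a 95% interval of 1.64 to 4.21 (limma, adjusted p = 0.893). Gbp4, a guanylate-binding protein gene, had the largest pooled difference of any gene, 1.53 ± 0.42 or 2.88-fold (1.58 to 5.26; limma, adjusted p = 0.893). Its 8 Mock values had a lowest, median and highest of 4.16, 6.01 and 7.57, against 3.66, 4.28 and 5.68 without treatment.

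**Figure D2:**
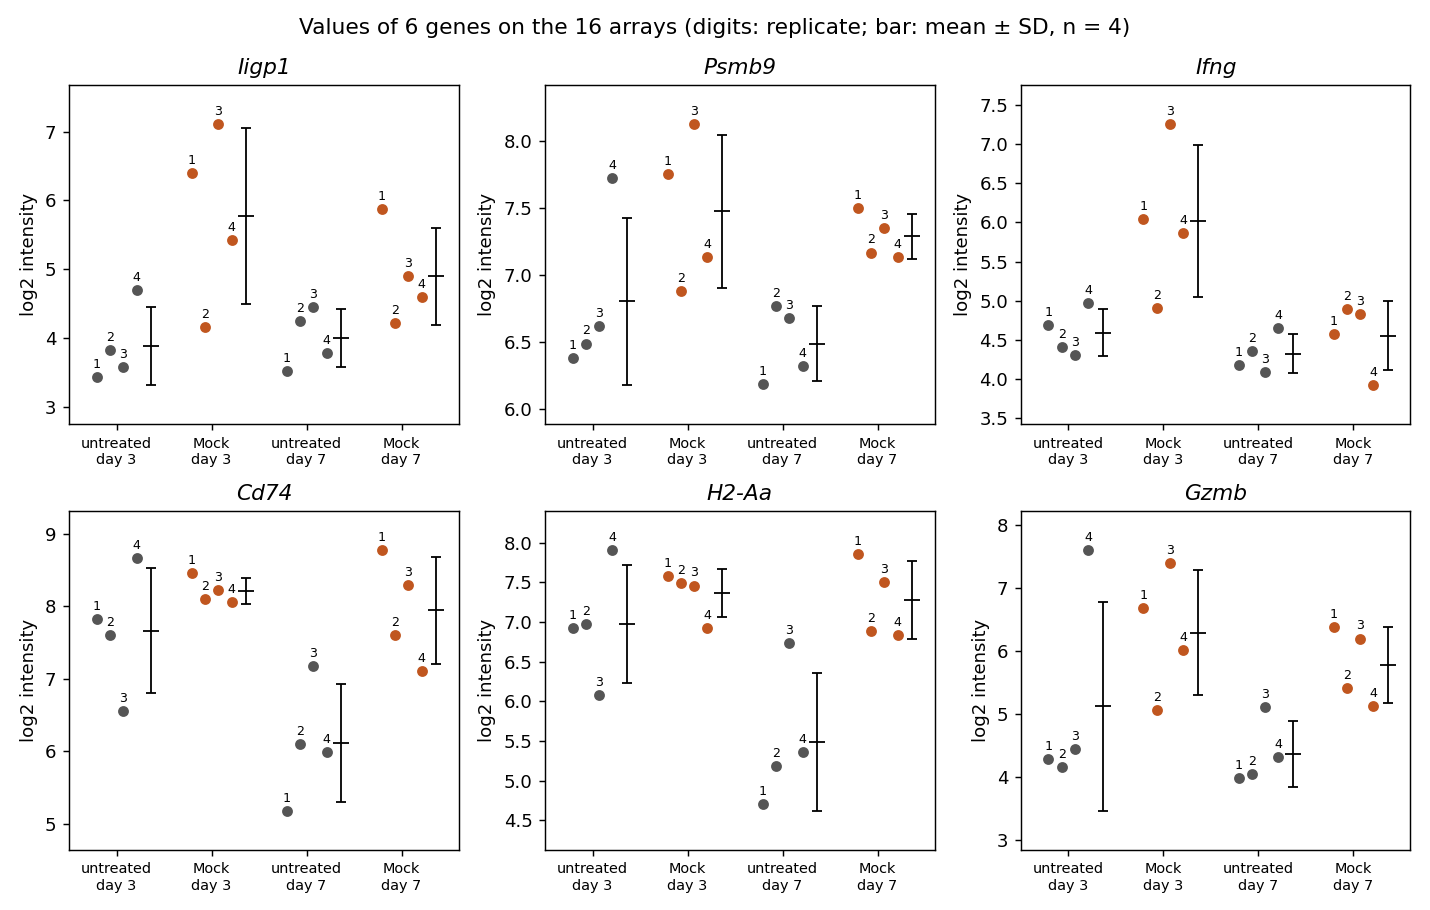
Log2 intensity of Iigp1, Psmb9, Ifng, Cd74, H2-Aa and Gzmb on each array, with untreated tumours in grey and Mock tumours in orange at each day, replicate numbers above the points, and the mean ± SD of 4 arrays as a bar. Untreated day 3 replicate 4 stands at 7.61 for Gzmb beside 4.16 to 4.45 in the other untreated day 3 arrays, and the 4 Mock values of Psmb9 at day 7 (7.14 to 7.5) lie above the untreated ones (6.19 to 6.77).

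Psmb9, a subunit of the immunoproteasome, was the most even of the strongest members. Its untreated values were 6.38, 6.49, 6.62 and 7.73 at day 3 and 6.19, 6.77, 6.68 and 6.32 at day 7. Its Mock values were 7.76, 6.88, 8.13 and 7.14 at day 3 and 7.5, 7.17, 7.35 and 7.14 at day 7. All 4 Mock values lay above all 4 untreated values at day 7, whereas at day 3 untreated replicate 4 lay among the Mock values. The pooled difference was 0.74 ± 0.18, 1.67-fold (1.28 to 2.16; limma, adjusted p = 0.893). Its partner Psmb8 differed by 0.64 ± 0.18 and Tap1, which carries peptides into the endoplasmic reticulum, by 0.75 ± 0.20.

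Among the transcription factor genes of the pathway, Irf1 and Irf8 overlapped between the arms at day 3 and not at day 7. Irf1, an interferon-induced transcription factor gene, was measured at 6.05, 5.96, 6.18 and 6.91 without treatment and 7.7, 6.18, 8.04 and 6.74 in Mock tumours at day 3. At day 7 it was measured at 5.66, 5.94, 5.89 and 6.21 without treatment and 6.74, 6.25, 6.45 and 6.39 in Mock tumours. The untreated and Mock groups of Irf1 were separate only at day 7, where the nearest values were 6.21 and 6.25. Irf8, which also directs myeloid development, had Mock values of 7.08, 6.81, 7.06 and 6.52 at day 7 against 5.69, 5.92, 6.46 and 5.82 without treatment. The pooled differences were 0.71 ± 0.20 for Irf1 and 0.67 ± 0.18 for Irf8 (limma, adjusted p = 0.893 for each). Cxcl9, a chemokine gene that draws activated T cells, differed by 1.24 ± 0.40, or 2.36-fold (1.33 to 4.19). The untreated day 3 array of replicate 4 held 7.64 for Cxcl9, against 5 to 5.37 on the other 3. Ido1 was the only measured member with a negative difference.

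Non-overlap between the arms was rare at day 3 and more common at day 7. All 4 Mock values lay above all 4 untreated values for 125 genes at day 3 (0.627%) and for 913 at day 7 (4.58%), and below for 193 (0.968%) and 250 (1.25%). Among the 19 interferon gamma genes this held for Ciita at day 3 and for 7 at day 7, namely Cd274, Gbp3, Irf1, Irf8, Nos2, Psmb8 and Psmb9, with 0 below at either day. At both days together the Mock values lay above for 6 genes (0.0301%) and below for 0 (0%). The 6 genes were AU019990, Crybg2, Gpr45, Mir669c, Pmvk and Slc13a2, none of them in a list used here, with pooled differences between 0.19 and 0.38. They were named after their values were seen.

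The MHC class II genes stood higher in Mock tumours chiefly at day 7, in values that did not pass the test. Of 9 measured members of this list, 6 were higher at an unadjusted p under 0.05 in the pooled fit (all genes: 4.02%), 0 were lower and 0 passed. The median difference was 0.31 at day 3 and 0.88 at day 7. At day 7 the arms did not overlap for H2-Aa, H2-Ab1, H2-DMa and H2-Ob (all genes: 4.58%), and at day 3 for Ciita alone (all genes: 0.627%).

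Cd74 encodes the invariant chain that guides class II molecules to the peptide-loading compartment. At day 3 it was measured at 7.82, 7.61, 6.56 and 8.67 without treatment and 8.46, 8.1, 8.22 and 8.06 in Mock tumours. At day 7 the untreated values were 5.18, 6.1, 7.17 and 5.99 and the Mock values 8.78, 7.6, 8.3 and 7.11. At day 3 the Mock values lay inside the wider untreated range, and at day 7 only the highest untreated value exceeded the lowest Mock value. The difference was 0.55 ± 0.40 at day 3 (limma, adjusted p = 1) and 1.84 ± 0.40 at day 7 (limma, adjusted p = 0.205). H2-Aa, the class II alpha chain, read 6.93, 6.97, 6.08 and 7.91 without treatment and 7.58, 7.49, 7.46 and 6.92 in Mock tumours at day 3. At day 7 it read 4.7, 5.18, 6.73 and 5.36 without treatment and 7.86, 6.89, 7.51 and 6.84 in Mock tumours. In H2-Aa the day 7 groups were separate, with untreated replicate 3 coming closest to the Mock values, and the day 3 groups overlapped. The day 7 difference of H2-Aa was 1.78 ± 0.36, and that of H2-Ab1, the beta chain, was 1.77 ± 0.39 (limma, adjusted p = 0.205 for each).

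The test of the day difference itself called 0 genes (0% of those tested). In that test 1414 genes (7.09%) had an unadjusted p under 0.05 and the smallest adjusted p was 0.681 (limma interaction). The effect at day 7 minus that at day 3 was 1.39 for H2-Aa (unadjusted p = 0.013 in the limma fit), 1.46 for H2-Ab1 (0.015) and 1.29 for Cd74 (0.032). For Ifng the same quantity was -1.19 (unadjusted p = 0.017). By itself, day 3 called 0 genes (0%) with 345 at an unadjusted p under 0.05 (1.73%), and day 7 called 0 genes (0%) with 2694 (13.5%; 1771 higher and 923 lower). The smallest adjusted p was 1 at day 3 and 0.205 at day 7. Symbols that are only model, clone or accession identifiers were left out of the ranking by p of the day difference. Among the rest, the smallest p belonged to Dnaaf3 for a positive day difference (0.91) and to Bend6 for a negative one (-0.74). For Dnaaf3, Mock minus untreated was -0.37 at day 3 and 0.54 at day 7. For Bend6 it was 0.08 at day 3 and -0.66 at day 7. Fosb, an immediate early gene, had a day difference of 1.5, with Mock minus untreated at -1.13 at day 3 and 0.37 at day 7.

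**Figure D3:**
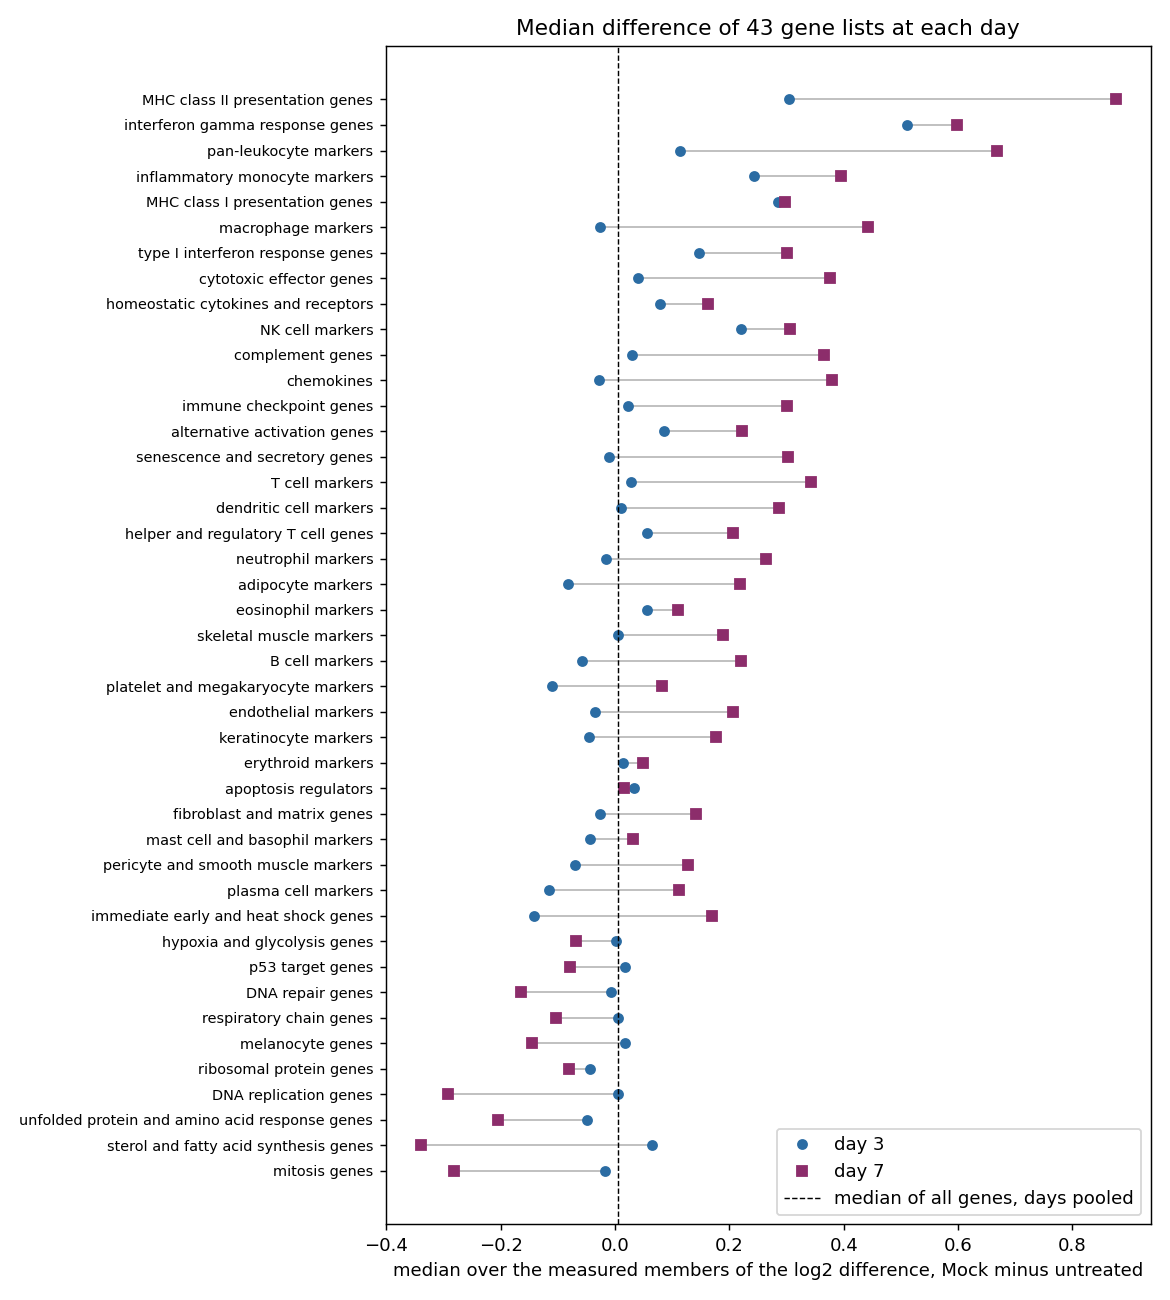
Median over measured members of the log2 difference, Mock minus untreated, for 43 gene lists at day 3 (circles) and day 7 (squares), ordered by the pooled median, with the pooled median of all genes as a dashed line. MHC class II genes run from 0.31 at day 3 to 0.88 at day 7, and the mitosis genes at the bottom run from -0.02 to -0.28.

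Type I interferon and MHC class I genes differed by less. Among 23 measured type I interferon response genes the median difference was 0.24, with 6 higher at an unadjusted p under 0.05 (all genes: 4.02%), 0 lower and 0 passed. Zbp1, a sensor of nucleic acids, was the leading member at 0.97 ± 0.25, and Ifit3 and Irf7 followed at 0.69 ± 0.21 and 0.55 ± 0.18. Mx1, a classical antiviral gene of this class named after its value was seen, differed by 0.06. Among 14 measured MHC class I presentation genes the median was 0.29, with 7 higher, 0 lower and 0 passed. The list shares Psmb8 and Psmb9 with the interferon gamma list. B2m, the light chain of class I, was also named after its value was seen and differed by 0.17.

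Genes of T cells and of cytotoxic effectors did not pass the test, and their values in the arms lay closer at day 3 than at day 7 in the median. Of 15 measured T cell markers, 0 passed, and 4 were higher and 0 lower at an unadjusted p under 0.05 (all genes: 4.02% and 1.34%). Their median difference was 0.03 at day 3 and 0.34 at day 7, and 0.23 at day 7 after quantile normalization. Cd8a read 4.92, 4.73, 5.05 and 5.23 without treatment and 4.89, 4.81, 5 and 5.03 in Mock tumours at day 3. At day 7 it read 4.83, 5.4, 5.44 and 4.61 without treatment and 5.97, 5.47, 5.75 and 5.34 in Mock tumours. The Cd8a values of the arms were interleaved at day 3, and at day 7 only the lowest Mock array lay under the highest untreated ones. The difference in Cd8a was -0.05 ± 0.18 at day 3 and 0.56 ± 0.18 at day 7 (limma, adjusted p = 1 and 0.259). At day 7 the arms were separate for 7 of 15 T cell markers (Cd247, Cd28, Cd3e, Cd3g, Cd6, Cd8b1 and Thy1; all genes: 4.58%). Cd4, which marks helper T cells and not the transferred population, differed by 0.15 ± 0.13 over both days.

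Ifng, the cytokine gene itself, was the effector gene with the clearest day 3 values. At day 3 it was measured at 4.69, 4.4, 4.3 and 4.97 without treatment and at 6.05, 4.9, 7.26 and 5.87 in Mock tumours. At day 7 the untreated values were 4.18, 4.36, 4.08 and 4.65 and the Mock values 4.57, 4.89, 4.83 and 3.92. At day 3 Mock replicate 2 lay just under untreated replicate 4 and the other 3 Mock arrays lay above every untreated array, while at day 7 the arms were interleaved. The difference was 1.43 ± 0.32 at day 3 and 0.23 ± 0.32 at day 7 (limma, adjusted p = 1 and 0.754). Gzmb, the granzyme that triggers apoptosis in target cells, read 4.28, 4.16, 4.45 and 7.61 without treatment and 6.68, 5.07, 7.4 and 6.02 in Mock tumours at day 3. Its day 7 values were 3.99, 4.04, 5.11 and 4.32 against 6.38, 5.42, 6.2 and 5.13. The highest Gzmb value of all 16 arrays thus came from an untreated tumour. The pooled difference of Gzmb was 1.29 ± 0.40, 2.45-fold (1.39 to 4.34; limma, adjusted p = 0.893). Over the 16 cytotoxic effector genes the median was 0.04 at day 3 and 0.38 at day 7, with 5 higher (all genes: 4.02%), 0 lower (1.34%) and 0 passed in the pooled fit. Ncr1, which encodes an activating receptor of NK cells, differed by 0.32 ± 0.18.

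Untreated day 3 replicate 4 carried high levels of the same gene groups as the Mock arrays. The mean of the cytotoxic effector list was 4.63, 4.49 and 4.48 on the other 3 untreated day 3 arrays and 5.75 on this one, above all 4 Mock day 3 arrays (5.25, 4.64, 5.47 and 4.87). The NK cell markers stood at 4.48 on this array and at 3.52 to 3.86 on the other 3. The inflammatory monocyte markers stood at 6.51 on it, against 4.39 to 5.38 on the others and 5.37 to 5.99 in Mock tumours. The interferon gamma list read 6.47 on it beside 5.48, 5.68 and 5.59. Mock day 3 replicate 2 had the reverse position, with an interferon gamma list mean of 5.67 beside 6.87, 7.06 and 6.3. The part of cell composition in these arrays was not tested.

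**Figure D4:**
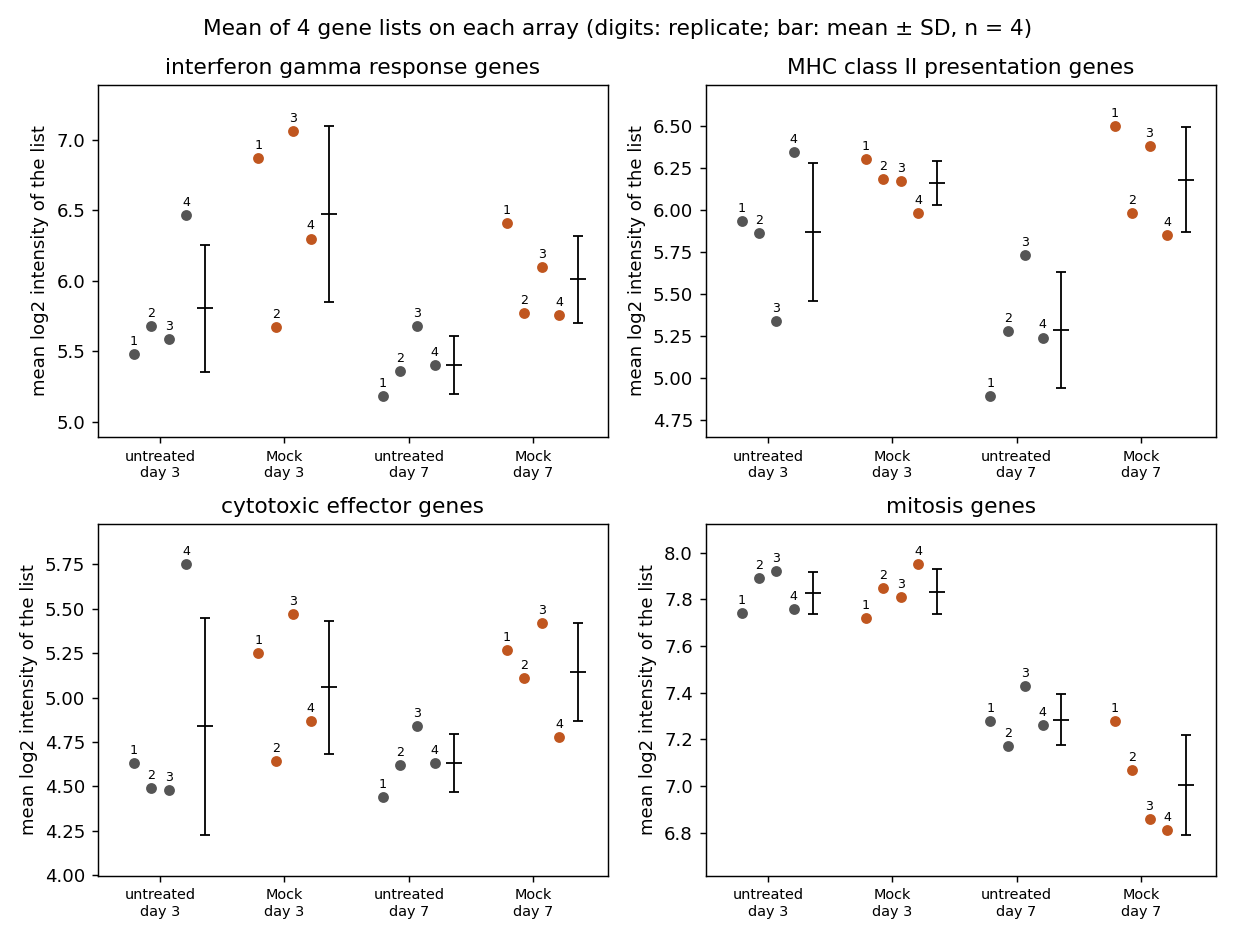
Mean log2 intensity over the measured members of 4 gene lists on each array, with untreated tumours in grey, Mock tumours in orange, replicate numbers above the points, and the mean ± SD of 4 arrays as a bar. For the cytotoxic effector list, untreated day 3 replicate 4 (5.75) is the highest of the 16 arrays.

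The pooled count depended on that array. Without untreated day 3 replicate 4, 26 genes passed at an adjusted p under 0.05, all higher in Mock (0.13% of genes; limma). They included Gzmb at 1.69 ± 0.27 (adjusted p = 0.0257), Psmb9 at 0.88 ± 0.15 (0.0262), Irf8 at 0.82 ± 0.15 (0.0263), Cd74 at 1.40 ± 0.27 (0.0387), Zbp1, H2-DMa, H2-Aa, Nos2, Psmb8 and Cd3g. Of the 26, 8 belonged to the interferon and MHC lists, which held 62 measured genes. Leaving out any other single array called 0 genes in the pooled fit, with 677 to 1486 genes at an unadjusted p under 0.05 over all 16 omissions. At day 3 alone, omitting Mock replicate 2 called 4 genes, all higher: Ifng at 1.80 ± 0.28, Iigp1 at 2.43 ± 0.38, Gm12250 at 2.39 ± 0.39 and Gm12185 at 1.95 ± 0.31 (limma, adjusted p = 0.0344 each). At day 7 alone, omitting untreated replicate 3 called H2-Aa at 2.20 ± 0.31 (limma, adjusted p = 0.0191). The arrays were found by their effect on the count, so these counts describe the dependence on single arrays and are not calls of the comparison.

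**Figure D5:**
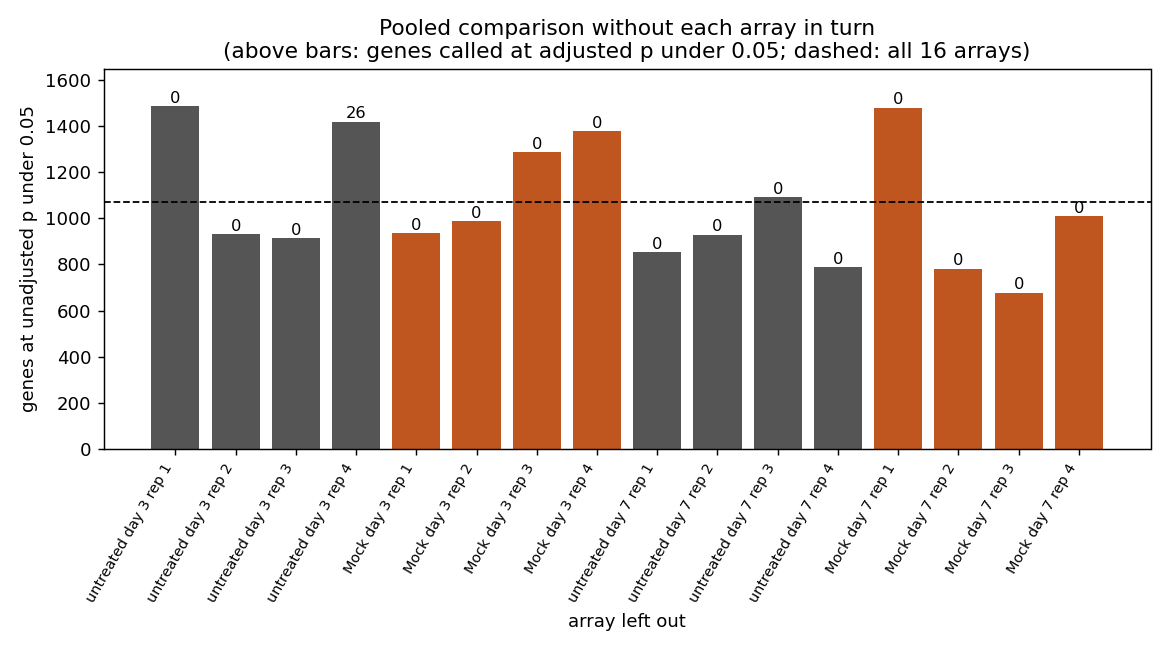
Number of genes at an unadjusted p under 0.05 in the pooled fit (vertical axis, bars from 0) when each of the 16 arrays is left out in turn, with the number called at an adjusted p under 0.05 above each bar and the count with all arrays (1069) as a dashed line. Only the omission of untreated day 3 replicate 4 gave calls, 26 in number.

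Leukocyte and myeloid markers were higher in Mock than in untreated tumours at day 7 in value, as were markers of several other cell types. For 16 pan-leukocyte markers the median difference was 0.11 at day 3 and 0.67 at day 7, with 8 higher at an unadjusted p under 0.05 in the pooled fit (all genes: 4.02%), 0 lower and 0 passed. Ptprc, which encodes the leukocyte phosphatase CD45, had lowest, median and highest values of 5.42, 5.77 and 6.29 in Mock and 4.41, 5.14 and 6.28 without treatment. Its difference was 0.66 ± 0.20, or 1.58-fold (1.18 to 2.13; limma, adjusted p = 0.893). The 17 macrophage markers had a median of -0.03 at day 3 and 0.44 at day 7, with 1 higher (Fcgr1), 0 lower and 0 passed. Adgre1, a surface receptor gene of mouse macrophages, ranged from 4.4 to 6.62 in Mock and from 4.08 to 7.32 without treatment, and its difference was 0.33 ± 0.25. That difference came to 0.195 without untreated day 3 replicate 3, 0.506 without untreated day 3 replicate 4 and 0.119 without 3 day 7 arrays that stand together (untreated replicates 1 and 4 and Mock replicate 1). S100a8, which is abundant in neutrophils, differed by 0.14 ± 0.14. Several non-immune marker lists were also higher in Mock than in untreated tumours at day 7. Their median differences were 0.19 (skeletal muscle), 0.22 (adipocyte), 0.21 (endothelial) and 0.18 (keratinocyte). After quantile normalization these were 0.07, 0.09, 0.12 and 0.06, beside 0.655 for the pan-leukocyte markers. The interquartile range over genes was 2.15 to 2.38 on Mock day 7 arrays and 2.29 to 2.53 on untreated ones. The part of this array-wide difference was not tested.

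Genes of the tumour cells and of the response to radiation had small negative median differences in the pooled fit, with lower medians at day 7 than at day 3. Among 16 melanocyte genes the median difference was -0.07 pooled, 0.02 at day 3 and -0.15 at day 7, where 2 of the 16 were positive (all genes: 10973 of 19938), with 0 higher, 0 lower and 0 passed. After quantile normalization the melanocyte medians were -0.016 pooled, 0.02 at day 3 and -0.07 at day 7. Pmel, the source of the antigen that the transferred cells recognise, ranged from 11.1 to 12.07 in Mock and from 11.45 to 11.94 without treatment. Its difference was -0.04 ± 0.11, and the interval, from 0.828 to 1.14 as a fold, excludes a change of 1.5-fold either way. Tyr, the rate-limiting enzyme of melanin synthesis, differed by -0.13 ± 0.15. Among 18 measured p53 target genes the median was -0.05 pooled, 0.02 at day 3 and -0.08 at day 7, with 0 higher, 0 lower and 0 passed in the pooled fit. For Ei24 and Zmat3 the Mock values lay wholly below the untreated ones at day 7 (all genes: 1.25%). The 19 DNA repair genes had a median of -0.16 at day 7, where 3 were positive. Quantile normalization gave day 7 medians of -0.07 for the p53 targets and -0.25 for the DNA repair genes. Mdm2, the p53 target that restrains p53, differed by -0.06 ± 0.12 (interval from 0.801 to 1.14 as a fold). Cdkn1a and Bax are not analysed here.

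Proliferation genes were lower in Mock tumours at day 7 in value. The 17 mitosis genes had a median of -0.02 at day 3 and -0.28 at day 7, and 0 of the 17 had a positive difference at day 7. In the pooled fit 1 (Tpx2) was lower at an unadjusted p under 0.05 (all genes: 1.34%), 0 were higher and 0 passed. Mki67, which encodes the proliferation antigen Ki-67, read 9.02, 8.58, 8.54 and 8.91 without treatment and 8.66, 8.38, 7.87 and 8.07 in Mock tumours at day 7. At day 3 the values were 8.48, 8.27, 8.41 and 8.24 against 8.33, 8.41, 8.26 and 8.51. The Mki67 values of the arms were interleaved at day 3, and at day 7 3 of the 4 Mock arrays lay under every untreated array. The difference was 0.03 ± 0.15 at day 3 and -0.52 ± 0.15 at day 7 (limma, adjusted p = 1 and 0.259). Of 18 DNA replication genes, 3 were lower (Mcm5, Mcm6 and Rrm1), 0 higher and 0 passed, with medians of 0.005 and -0.29 at the days. The 13 sterol and fatty acid synthesis genes had a median of 0.06 at day 3 and -0.34 at day 7, with 0 at an unadjusted p under 0.05 in either direction. Quantile normalization gave day 7 medians of -0.21 (mitosis), -0.29 (DNA replication) and -0.24 (sterol and fatty acid synthesis). At day 7 leukocyte markers were higher in the same arrays (median 0.67), and their part in the lower values was not tested.

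The IL12TD arrays show how far the same genes were measured from the Mock level when the transferred cells carried IL-12. The fit of IL12TD against Mock uses the same 8 Mock arrays, so the differences are set side by side and not compared. For Iigp1 the 8 IL12TD values had a lowest, median and highest of 8.49, 9.09 and 9.91, and IL12TD minus Mock was 3.87 ± 0.37 beside 1.39 ± 0.33 for Mock minus untreated. For Ifng the differences were 5.30 ± 0.24 and 0.83 ± 0.26, for Gzmb 5.14 ± 0.27 and 1.29 ± 0.40, and for H2-Aa 2.75 ± 0.16 and 1.09 ± 0.29. For Cd8a they were 2.53 ± 0.15 and 0.26 ± 0.14, and for Mki67 -1.08 ± 0.14 and -0.24 ± 0.12. Of the 19 interferon gamma genes, 19 were called higher in IL12TD against Mock (all genes called higher: 7.21%) and 0 in Mock against untreated. Of the 16 cytotoxic effector genes the counts were 16 and 0, of the 15 T cell markers 13 and 0, and of the 16 melanocyte genes 0 and 0 higher.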

How the data were processed

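The deposited series table holds log2 intensities per probeset. RMA is the method that the submitters' processing notes name. The log2 scale was read from the range of the values, and the version and array set of RMA are not given in the sources used here. Of 35556 probesets, 21789 listed a single gene, and the brightest one per gene gave 19938 genes. The main fit was limma 3.58.1 (R 4.3.3; lmFit and eBayes, two-sided) with arm and day on the 16 arrays. Effects per day and their difference came from a fit with 4 group means. The Benjamini-Hochberg adjustment ran across the 19938 genes, with calls under 0.05. Folds are antilogs of log2 differences, ± is the standard error, and intervals are at 95%. The series calls the samples biological replicates. The number of arrays limits the precision.

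The comparison and the 43 gene lists (general knowledge) were chosen with earlier results of these data known. Genes were named as the 3 smallest p-values of each list, the 5 smallest each way for the day difference and a fixed set of 20, of which 16 were measured. The choice by day difference left out symbols that are only model, clone or accession identifiers. Ties in adjusted p were ordered by unadjusted p. The text prints part of these 144 genes. Promoter windows were searched for letter motifs. The model was tested on simulated data. Alternatives were other scalings, a filter, a variance prior, array weights, probesets, a day term, a replicate block and single arrays left out.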

Additional observations from a re-analysis of the deposited data

Results flagged for a closer look

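Within each group of 4 arrays, the values of the genes and lists shown above were screened for an array far from the other 3 (gap over range above Dixon's critical ratio for 4 values). Of 140 groups screened, 9 passed, where chance gives about 1 in 20, and the genes are not independent of each other. Of the 9, 6 came from untreated day 3 replicate 4. It held Cxcl9 at 7.64 (others 5 to 5.37), Zbp1 at 7.45 (others 5.92 to 6) and Tap1 at 7.84 (others 7 to 7.13). It also held Gzmb at 7.61 (others 4.16 to 4.45), Ncr1 at 5.01 (others 3.63 to 3.84) and a cytotoxic effector list mean of 5.75 (others 4.48 to 4.63). Untreated day 7 replicate 3 held Tap1 at 6.18, below the other 3 (6.71 to 6.76). Untreated day 7 replicate 1 held Cd3e at 4.92, below the other 3 (5.48 to 5.51). Mock day 3 replicate 3 held Tyr at 10.1, above the other 3 (9.78 to 9.82).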

How the results depend on the processing

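With each of the 16 arrays left out in turn, the count of called genes ran from 0 to 26 with the days pooled, from 0 to 4 at day 3, from 0 to 1 at day 7 and stayed at 0 for the day difference. Each other alternative gave 0 called genes in every comparison it was run for; the fits with no day term, with the average of 4 group means and with all probesets were run for the pooled comparison only, and those on 8 arrays for 1 day each. For the pooled comparison they gave 387 (no day term) to 2080 (array weights) genes at an unadjusted p under 0.05 among the settings on 19938 genes. The smallest adjusted p was 0.299 with array weights, 0.334 with all 24 arrays, 0.945 after quantile normalization, 0.811 after centring and 0.117 over all 35556 probesets. At day 7 the smallest adjusted p came to 0.0708 after quantile normalization and 0.0933 after centring. Repeat numbers showed no pairing common to all arrays: the correlations of same-numbered deviations ran from -0.212 to 0.524. The highest was that of replicate 1 at day 7, and the others were at most 0.145. A fit with the replicate block called 0 genes, with 1081 (pooled), 396 (day 3), 2959 (day 7) and 1602 (day difference) at an unadjusted p under 0.05. At day 7, untreated replicates 1 and 4 and Mock replicate 1 stood together on the first component (33.7% of variance). Leaving these 3 out, a choice made after seeing the data, gave 0 calls pooled (843 unadjusted) and 0 at day 7 (3060 unadjusted). Of 3855 values of the 144 named genes under alternatives, 3832 kept their sign, and the 23 that changed it belonged to 8 genes with differences of at most 0.137. Quantile normalization and centring moved the median of all genes by under 0.1 and kept the sign of the list medians given above.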
